A study of Homo sapiens with 4 samples.

Results

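Glycolysis turns glucose into pyruvate, and the genes described here encode its glucose transporters and enzymes together with the proteins that pass pyruvate to lactate or into mitochondria. They were 35 gene symbols chosen by function, with earlier results of these data known. Every probe set annotated to a single listed symbol was taken as a member. This gave 81 probe sets of 33 genes, out of 41097 single-gene probe sets of 19775 genes on the array. The other 2 symbols were not analysed here. All 33 genes passed the filter on dim genes, as did 12468 genes in all.

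HCT116 is an established line of human colorectal adenocarcinoma cells, and its messenger RNA was measured on 4 Affymetrix arrays with 1 array per group. The groups were untransfected cells, cells carrying a non-targeting control hairpin (shCTRL), cells with KSR1 hairpin #1 and cells with KSR1 hairpin #2, all hairpins being short hairpin RNAs. KSR1 is a scaffold for the kinases RAF, MEK and ERK. Per the labels, vectors were introduced by lipofection and puromycin-resistant clones were selected, so the untransfected cells lack both vector and selection, and the labels leave unsaid whether an array stands for 1 clone or several. Linear intensities were deposited and are used as log2(intensity + 16), a scale that understates differences of dim probe sets. A log2 difference of 1 is 2-fold.

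Tumour cells often take up much glucose and release lactate even with oxygen present. The pathway is steered by hexokinase, by phosphofructokinase and its PFKFB regulators, and by pyruvate dehydrogenase, which PDK kinases switch off. Hypoxia-inducible factor (HIF) and MYC are known activators of many of these genes, and several enzymes have isoforms of which only some are strongly inducible.

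The targeted gene and the arrays were examined first. The brightest KSR1 probe set had intensities of 209 (untransfected), 211 (shCTRL), 141 (hairpin #1) and 171 (hairpin #2), a log2 difference of -0.40 (SE 0.12, limma adjusted p = 0.668). Array medians lay between 50.7 and 52.0. The ratio of 3' to 5' signal of the GAPDH control probe sets, a sign of RNA integrity, lay between 1.14 and 1.19, and that of actin was 2.68, 2.09, 2.01 and 2.22 in the order of arrays just given. All 8 colon epithelial markers examined passed the filter, but VIL1 (intensities of 56 to 62.6) and CDX2 (79.9 to 131) were dim. In both hairpin arrays 3 markers (37.5%) were higher and 1 (12.5%) lower, against 22.5% and 18.4% of all genes. Of 8 leukocyte markers with a probe set 0 passed, and of 10 fibroblast markers 3 did: THY1 (-0.21), COL1A1 (-0.11) and DCN (-0.07). The summed intensity of all 10 fibroblast markers was 704, 675, 621 and 641, of which COL1A1 alone gave 433, 400, 372 and 395. The part of this sum in the results was not tested. Cells with less RNA each and fewer expressing cells cannot be told apart in such bulk RNA.

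Transcripts of the glycolytic chain were mostly lower in both KSR1 hairpin arrays. In 19 of the 33 genes both hairpin arrays lay below both other arrays, and in 3 genes (PFKFB3, LDHB and PDHA1) both lay above. Of all genes analysed, 18.4% met the lower rule and 22.5% the higher rule. The median difference (mean of both hairpin arrays minus mean of both others) was -0.16 over the members and 0.02 over all genes. Because the members were listed with earlier results of these data known, this contrast describes the list and is not a test. After quantile normalization, which turned the background to 22.3% lower and 17.7% higher, the members were 20 lower and 2 higher. SLC2A3, counted among the 19, passed the filter only through the arrays without a KSR1 hairpin, and without it 18 of 32 members were lower, with a median of -0.16.

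The lower genes sat on consecutive steps of the pathway. They were 8 of 9 from hexokinase to triose phosphate isomerase and 6 of 7 from GAPDH to pyruvate kinase, against 0 of 5 for the mitochondrial pyruvate carrier and pyruvate dehydrogenase. The others were SLC2A3, PFKFB4, LDHA, PDK1 and PDK3. Some genes met the rule narrowly: the nearest arrays of the 2 sides lay 0.02 log2 units apart for PKM, 0.03 for PFKL and 0.06 for ENO1. On the other probe set of PFKL and that of PKM the arrays overlapped. Among the 19, the mean difference was -0.5 or beyond in 8 and smaller in 11. In 15 of the 19 the gap between the nearest arrays of the 2 sides exceeded the distance between the untransfected and shCTRL arrays. The 19 were picked by having such a gap, and the same share was not taken over all genes that met the lower rule. Hairpin #2 gave the lowest of the 4 values in 18 members and hairpin #1 in 9, against 3 each for the untransfected and shCTRL arrays. In the 19 lower genes a hairpin array is the lowest by the rule itself. The lowest array was not counted over all genes, so these counts have no background.

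**Figure D1:**
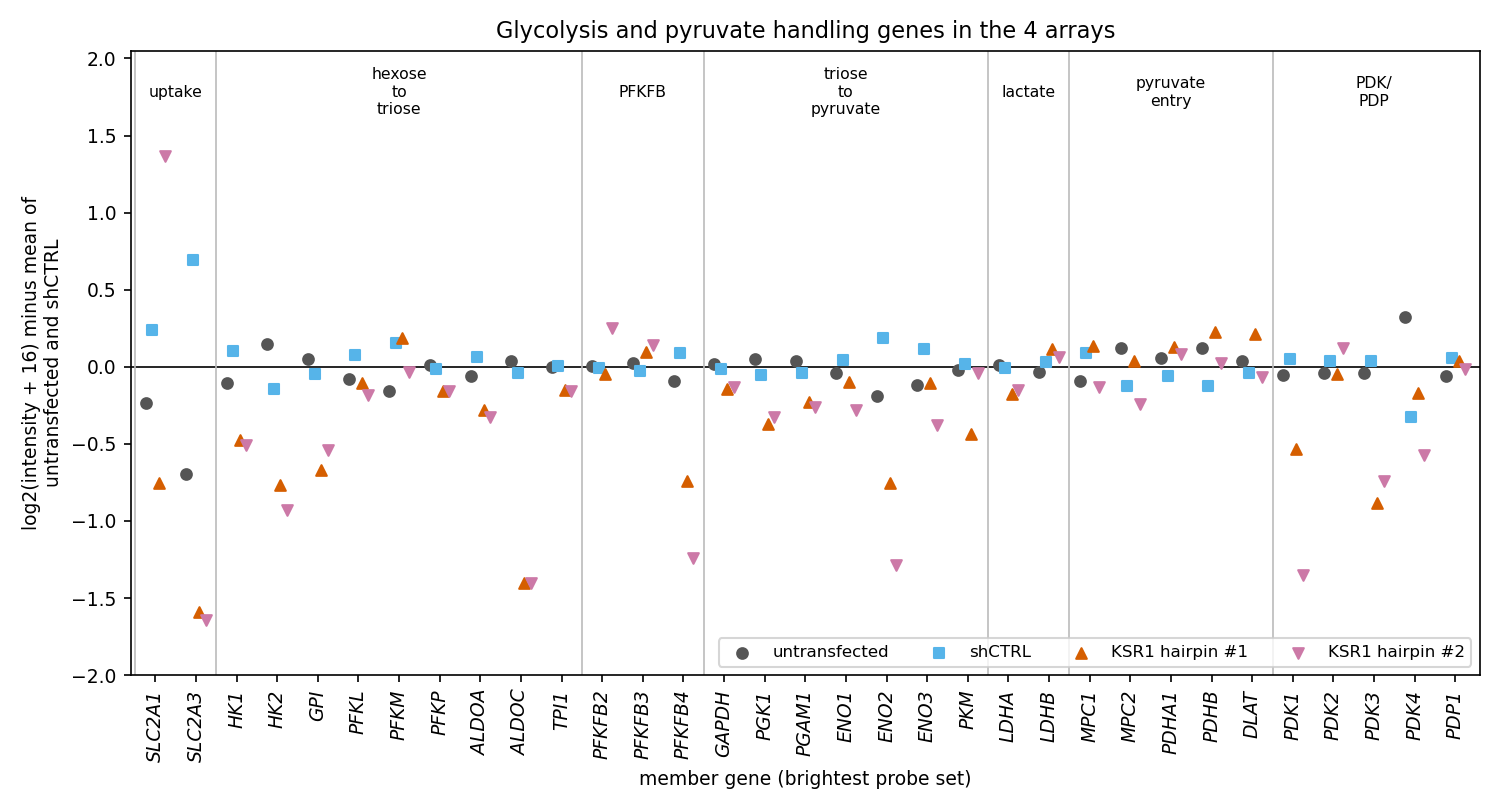
Each point is 1 array's log2(intensity + 16) for a member gene, minus the mean of the untransfected and shCTRL arrays, with genes grouped by role (PFKFB, regulators of phosphofructokinase; PDK / PDP, kinases and phosphatase of pyruvate dehydrogenase). Both hairpin arrays lie below both others in 19 of 33 genes, mostly between hexokinase and pyruvate kinase, and SLC2A1 has the hairpin arrays on opposite sides.

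None of these differences passed the test across all genes. With both hairpin arrays against both others, limma called 0 of 12468 genes (0%) at an adjusted p under 0.05, and 882 (7.07%) had an unadjusted p under 0.05. Of the members, 11 had an unadjusted p under 0.05: SLC2A3, HK1, HK2, GPI, ALDOA, ALDOC, PFKFB4, PGK1, ENO2, PDK1 and PDK3, or 10 without SLC2A3. The fit has 2 residual degrees of freedom, and its spread comes from the distance of hairpin #1 from hairpin #2 and of shCTRL from untransfected cells, not from repeat cultures. The words lower and higher below therefore describe these 4 arrays.

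The promoters of the members that lay furthest below are shown first because these genes were low together. SLC2A3, the lowest, is named only, because it has no window in the promoter set used. The promoters are RefSeq windows of 250 bases before to 50 bases after the gene start (GRCh38.p14), and 30 of the 33 members have one. A single window was taken per gene, so any other start site of a gene was not searched. Capitals mark the core of the HIF response element, ACGTG or GCGTG, on either strand (CACGT and CACGC on the other strand). PDHB, whose arrays overlapped on its brightest probe set, is shown for contrast because it had 6 such matches. LDHA, a lower member whose window is not shown, also had 6. The windows are chr17:28576846-28577145 on the minus strand for ALDOC, chr12:6914330-6914629 on the plus strand for ENO2, chr3:48556754-48557053 on the minus strand for PFKFB4, chr2:172555123-172555422 on the plus strand for PDK1, chr2:74833877-74834176 on the plus strand for HK2, chrX:24465036-24465335 on the plus strand for PDK3 and chr3:58433783-58434082 on the minus strand for PDHB.
ALDOC: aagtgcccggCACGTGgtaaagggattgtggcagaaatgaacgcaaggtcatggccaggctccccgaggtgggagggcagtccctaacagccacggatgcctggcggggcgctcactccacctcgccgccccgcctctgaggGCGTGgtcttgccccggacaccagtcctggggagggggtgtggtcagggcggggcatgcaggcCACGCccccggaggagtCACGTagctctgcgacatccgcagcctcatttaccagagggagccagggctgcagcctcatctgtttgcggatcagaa
ENO2: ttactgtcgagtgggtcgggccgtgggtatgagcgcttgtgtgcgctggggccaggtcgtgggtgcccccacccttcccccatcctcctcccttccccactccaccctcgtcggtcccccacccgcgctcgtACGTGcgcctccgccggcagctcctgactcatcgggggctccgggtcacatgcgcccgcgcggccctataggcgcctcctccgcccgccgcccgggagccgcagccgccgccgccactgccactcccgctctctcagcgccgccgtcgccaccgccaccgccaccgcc
PFKFB4: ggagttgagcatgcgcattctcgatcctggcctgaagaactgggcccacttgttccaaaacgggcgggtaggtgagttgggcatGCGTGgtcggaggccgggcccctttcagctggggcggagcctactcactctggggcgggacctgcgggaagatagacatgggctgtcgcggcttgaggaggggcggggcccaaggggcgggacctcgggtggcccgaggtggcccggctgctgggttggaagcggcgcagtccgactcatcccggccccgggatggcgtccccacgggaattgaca
PDK1: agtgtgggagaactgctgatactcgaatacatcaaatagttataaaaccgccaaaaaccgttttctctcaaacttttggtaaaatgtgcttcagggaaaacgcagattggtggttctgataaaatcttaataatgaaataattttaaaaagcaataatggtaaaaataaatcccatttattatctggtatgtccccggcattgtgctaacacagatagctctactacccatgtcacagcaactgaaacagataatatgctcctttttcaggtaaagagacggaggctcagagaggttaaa
HK2: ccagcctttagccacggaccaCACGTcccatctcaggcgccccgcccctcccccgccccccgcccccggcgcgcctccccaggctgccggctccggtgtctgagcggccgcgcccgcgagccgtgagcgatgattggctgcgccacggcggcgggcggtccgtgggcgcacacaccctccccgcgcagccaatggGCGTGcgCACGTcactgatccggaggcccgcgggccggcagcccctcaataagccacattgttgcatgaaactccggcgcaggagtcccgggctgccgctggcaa
PDK3: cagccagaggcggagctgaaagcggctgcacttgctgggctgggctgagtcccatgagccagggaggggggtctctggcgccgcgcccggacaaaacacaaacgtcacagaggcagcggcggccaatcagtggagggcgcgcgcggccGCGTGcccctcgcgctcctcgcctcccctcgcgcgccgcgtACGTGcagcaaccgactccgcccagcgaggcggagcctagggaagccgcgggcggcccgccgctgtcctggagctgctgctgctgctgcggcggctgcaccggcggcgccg
PDHB: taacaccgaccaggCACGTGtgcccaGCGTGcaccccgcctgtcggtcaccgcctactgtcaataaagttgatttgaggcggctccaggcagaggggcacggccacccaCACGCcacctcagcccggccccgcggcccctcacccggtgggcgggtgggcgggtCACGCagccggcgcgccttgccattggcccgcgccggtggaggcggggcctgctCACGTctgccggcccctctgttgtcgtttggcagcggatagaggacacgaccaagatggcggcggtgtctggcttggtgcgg
ALDOC had 5 matches, of which an overlapping pair forms the E-box CACGTG, the letters bound by MYC and MondoA partners. The PDHB window also held 1 E-box. HK2 had 3, PDK3 had 2, and ENO2 and PFKFB4 had 1 each, while the PDK1 window, at 36.3% G and C the poorest of those shown, had 0.

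The motif did not set the lower members apart by count. It was present in 13 of 18 promoters of lower members (72.2%), in 3 of 3 of higher members and in 5 of 9 of the others (55.6%), against 48.4% of 27305 promoters of the same length. The E-box stood in 3 of the 18 (16.7%) and in 7.43% of all promoters. Both motifs hold CG, and member promoters were richer in G and C (66.0%) than all promoters (57.2%). A match is a run of letters and not a measured binding site.

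Of the members, SLC2A1 differed most between the hairpins. It encodes the main glucose transporter of tumour cells, GLUT1. Its intensity was 1081 without transfection, 1506 in shCTRL cells, 750 under hairpin #1 and 3313 under #2. Hairpin #1 was thus the lowest array and hairpin #2 the highest, 2.12 log2 units apart. The other SLC2A1 probe set had the same order, with log2 values of 7.21, 7.60, 6.64 and 8.70.

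SLC2A3 encodes GLUT3, a transporter of high glucose affinity. Its intensity was 93.8 (untransfected), 272 (shCTRL), 43.0 (hairpin #1) and 40.9 (hairpin #2). Both hairpin arrays were below the array medians and under the filter value of log2 6.08 that SLC2A3 passed through the other arrays, so the distance is given as a lower bound. Set at that value, they lay at least 2.09 log2 units below shCTRL and at least 0.70 below untransfected cells. shCTRL itself stood 1.39 above untransfected cells, so the size depended on which control array was used. The measured mean difference was -1.62 (SE 0.47, limma adjusted p = 0.668), and it ran from -1.90 with a pseudocount of 1 to -1.12 with a pseudocount of 64. On its other 2 probe sets both hairpin arrays were also below both others, at log2 6.35 and 6.11 on one and under the filter value on the other.

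The hexokinases, which trap glucose in the cell as its phosphate, were lower in both forms. HK2, the inducible form, had 2483 without transfection, 2027 in shCTRL cells, 1310 under hairpin #1 and 1174 under #2, so the groups did not overlap. The difference was -0.85 (SE 0.14, limma adjusted p = 0.668). Its other 2 probe sets were under the filter and higher with the hairpins, at 0.52 and 0.21, so the mean over all its probe sets differed by only -0.04. HK1, the housekeeping form, had 1577, 1823, 1215 and 1188 in the same order and differed by -0.49 (SE 0.11).

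Both aldolase isoforms were lower, ALDOC by more. Aldolase splits fructose bisphosphate into 2 trioses. ALDOC, the isoform best known from brain, had 1785 (untransfected), 1689 (shCTRL), 646 (hairpin #1) and 646 (hairpin #2). The hairpin arrays coincided and lay 1.36 log2 units below the lower of the others. The mean difference was -1.40 (SE 0.09, 95% interval -1.65 to -1.16), or 2.65-fold. PFKP, TPI1 and GAPDH had the same SE of 0.09, so this precision is not particular to ALDOC. ALDOC was the only member with a gap of at least 1. Of all genes, 0.0321% reached this on the lower side and 0.0241% on the higher. The limma adjusted p of ALDOC, 0.318, equalled the smallest of all genes. ALDOA, the widespread isoform, had 11807, 12872, 10127 and 9822, a difference of -0.31 (SE 0.10). The probe sets for ALDOA end in _x_at, a suffix for probes that can also match related transcripts, and differed by -0.31, -0.32 and -0.63.

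Of the other enzymes on the way to triose phosphate, GPI differed most. GPI, which turns glucose phosphate into fructose phosphate, had 10180.5 without transfection, 9505 in shCTRL cells, 6169 under hairpin #1 and 6759 under #2, a difference of -0.61 (SE 0.10). The phosphofructokinase isoforms PFKL and PFKP differed by -0.14 and -0.16, while PFKM differed by 0.08 with overlapping arrays. TPI1, triose phosphate isomerase, differed by -0.15 on its brightest probe set and by -0.20 on another bright one, both with both hairpin arrays lower. Its probe set without a shared-probe suffix was far dimmer, with intensities of 85.3 to 90.7. There it differed by -0.02 and the arrays overlapped.

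The PFKFB enzymes make and remove the small-molecule activator of phosphofructokinase, and their genes parted. PFKFB4 had 1293 (untransfected), 1472 (shCTRL), 819 (hairpin #1) and 575 (hairpin #2). The groups did not overlap and the difference was -0.99 (SE 0.20, limma adjusted p = 0.668), or 1.99-fold, with -0.29 on a dimmer probe set. PFKFB3 had 552, 533, 580 and 598, a difference of 0.12 (SE 0.09), and PFKFB2 differed by 0.10 with overlapping arrays. Both lay near the median of all genes, 0.02.

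**Figure D2:**
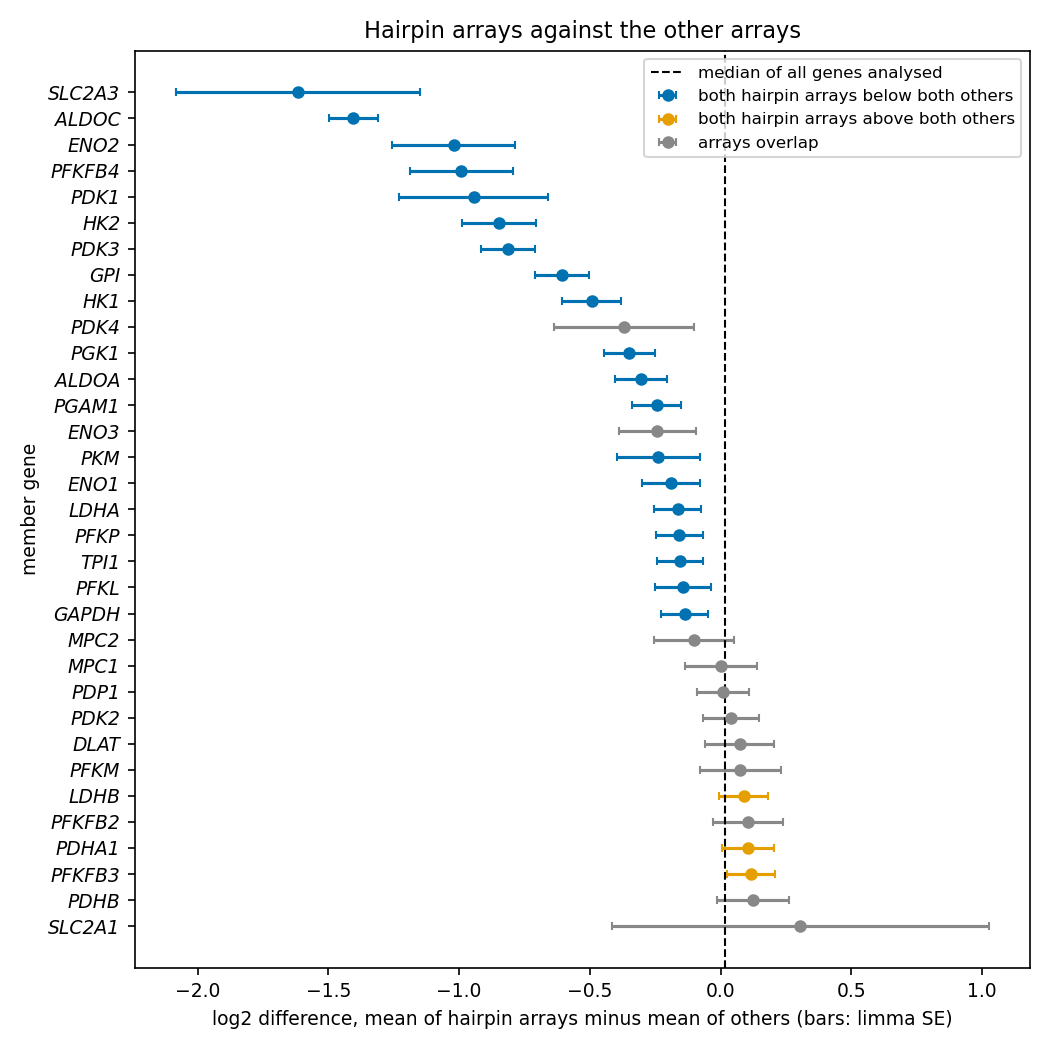
For each of the 33 genes, the point is the mean of the hairpin arrays minus the mean of the untransfected and shCTRL arrays in log2 units, with the limma standard error, and the dashed line is the median of 12468 genes, 0.02. ALDOC at -1.40 has a narrow bar, as do PFKP, TPI1 and GAPDH. SLC2A3 at -1.62, whose hairpin arrays are under the filter value, and SLC2A1 at 0.31 have wide ones. Pyruvate dehydrogenase genes lie near the line.

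From triose phosphate to pyruvate, ENO2 differed most. Enolase makes phosphoenolpyruvate, and ENO2 is the isoform best known from neurons. Its intensity was 992 without transfection, 1294 in shCTRL cells, 666 under hairpin #1 and 454 under #2. Both hairpin arrays were below both others, and the difference was -1.02 (SE 0.23, limma adjusted p = 0.668), or 2.03-fold. The widespread isoform ENO1 had 12453, 13225, 11966 and 10588, a difference of -0.19 (SE 0.11), and ENO3, known from muscle, differed by -0.24 with overlapping arrays.

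The remaining enzymes of this stretch have probe sets among the brightest of the array and differed by less than ENO2. PGK1, which makes the first ATP of the payoff phase, had 10473 (untransfected), 9765 (shCTRL), 7804 (hairpin #1) and 8079 (hairpin #2), a difference of -0.35 (SE 0.10). Its 5 other probe sets ranged from -0.63 to -0.07. PGAM1 differed by -0.24 (SE 0.09). PKM, pyruvate kinase, had 5646, 5786, 4219 and 5558, so only hairpin #1 stood apart, and its difference of -0.24 was -0.04 without hairpin #1.

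GAPDH, often used as an unchanging reference, had 20412 without transfection, 19955 in shCTRL cells, 18256.5 under hairpin #1 and 18440 under #2. The difference was -0.14 (SE 0.09), and both hairpin arrays were below both others on all 6 probe sets, of which 3 are control probe sets of the platform. Of the 33 members, 19 were in the brightest 5 percent of probe sets, 12 of them lower with both hairpins. Among genes above the 75th percentile of brightness the lower rule was met by 13.7% of 7974, and by 18 of the 29 members that remained. GAPDH, PGK1, PGAM1, ENO1, TPI1, LDHA and LDHB have processed pseudogenes of near-identical sequence, and signal shared with those cannot be split here.

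At the branch to lactate the isoforms of lactate dehydrogenase differed by small amounts. LDHA, which favours lactate, had 15374 (untransfected), 15187 (shCTRL), 13491.5 (hairpin #1) and 13791 (hairpin #2), a difference of -0.16 (SE 0.09). LDHB, known for favouring pyruvate, had 13302, 13922, 14722 and 14232, a difference of 0.09 (SE 0.09), which was 0.06 without the untransfected array. On its other probe set, at 0.07, the arrays overlapped. shCTRL minus untransfected was -0.02 for LDHA and 0.07 for LDHB.

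Genes that carry pyruvate into mitochondria and oxidise it had a median difference of 0.07 over 5 members. Of MPC1 and MPC2, which form the carrier, and PDHA1, PDHB and DLAT, subunits of pyruvate dehydrogenase, 0 of 5 were lower and 1 was higher, where 18.4% and 22.5% of all genes were. The higher gene was PDHA1, at 0.11 (SE 0.10), and on its other probe sets, at 0.05 and 0.17, the arrays overlapped. PDHB had 2571 without transfection, 2163 in shCTRL cells, 2758 under hairpin #1 and 2402 under #2. There the arrays overlapped, but on its other probe set, at 0.19, both hairpin arrays were above both others. DLAT differed by 0.07 on its brightest probe set, with overlapping arrays, and by 0.24 and 0.21 on its others, where both hairpin arrays were above both others.

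The kinases that switch pyruvate dehydrogenase off differed by isoform. PDK1, a HIF target, had 1022 (untransfected), 1097 (shCTRL), 725 (hairpin #1) and 405 (hairpin #2). Both hairpin arrays were below both others, and the difference of -0.94 (SE 0.29, limma adjusted p = 0.668) was -0.54 without hairpin #2 and -1.35 without hairpin #1. PDK3 had 787, 831, 430 and 478, a difference of -0.81 (SE 0.11, limma adjusted p = 0.644), or 1.76-fold. Its 3 other probe sets above the filter differed by -0.45, -0.39 and -0.21, all with both hairpin arrays below both others.

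The other pyruvate dehydrogenase regulators overlapped between the groups. PDK2 differed by 0.04 and PDP1, the phosphatase that reactivates the complex, by 0.01. PDK4, known for its response to fasting, was dim, with 91.7 without transfection, 52.7 in shCTRL cells, 60.5 under hairpin #1 and 42.0 under #2. Its highest value was in untransfected cells, 0.65 log2 units above shCTRL.

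Other probe sets of the lower genes mostly had the same order of arrays. The 19 lower genes had 26 further probe sets above the filter, of which 20 were lower in both hairpin arrays, 1 was higher and 5 overlapped. The exception was an ENO1 probe set, at 0.07. Over all 70 member probe sets above the filter, 39 were lower and 7 higher, against 16.9% and 23.7% of 22733 probe sets of all genes. Both counts of lower probe sets include SLC2A3. Its brightest probe set and 1 of its others passed the filter only through the arrays without a KSR1 hairpin, so they could not come out higher. Probe sets of a gene share its RNA and are not replicates.

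**Figure D3:**
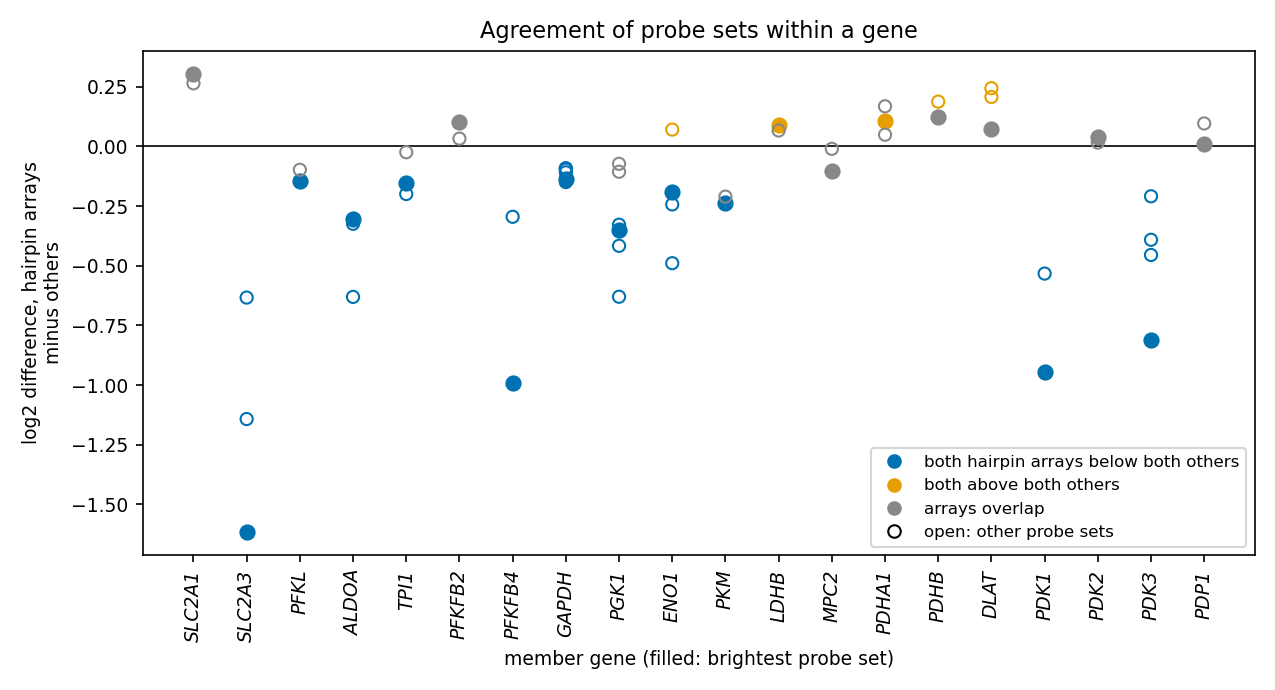
For member genes with more than 1 probe set above the filter, each circle is a probe set's log2 difference between the hairpin arrays and the others, filled for the brightest probe set, with colour for whether both hairpin arrays were below both others, above both or overlapping. Of 26 open circles of lower genes 20 are also lower, and for PFKFB4, PDK1, PDK3 and SLC2A3 the brightest probe set differs most.

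Single pairs of arrays were compared by the size rule of 1 log2 unit. Relative to shCTRL, hairpin #1 had 2 members at least 2-fold lower, ALDOC (-1.36) and SLC2A3 (by at least 2.09 log2 units), where 0.433% of all genes were, and 0 higher, where 0.112% were. Hairpin #2 had 5 lower, where 0.922% were: ENO2 (-1.48), PDK1 (-1.40), ALDOC (-1.37), PFKFB4 (-1.33) and SLC2A3 (with the same bound). Without SLC2A3 these counts were 1 and 4. It had 1 higher, SLC2A1 (1.13), where 0.979% of all genes were. These comparisons share the shCTRL array. Median member differences were -0.17 for hairpin #1 and -0.22 for hairpin #2, and 0.00 and 0.01 over all genes.

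Untransfected cells then served as the control. Hairpin #1 had 1 member at least 2-fold lower, ALDOC (-1.44), where 0.505% of all genes were, and 0 higher, where 0.249% were. Hairpin #2 had 5, where 0.987% were: ALDOC (-1.44), PDK1 (-1.30), PFKFB4 (-1.15), ENO2 (-1.10) and HK2 (-1.07). SLC2A1 was its 1 higher member (1.60), where 1.29% of all genes were. Median member differences were -0.17 for each hairpin, and 0.02 and 0.03 over all genes.

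The pair of control arrays and the pair of hairpin arrays had 1 such member each. Between shCTRL and untransfected cells SLC2A3 alone reached the rule (1.39), where 0.481% of all genes were higher and 0.369% lower, and the median member difference was 0.04. Between hairpin #2 and hairpin #1 SLC2A1 alone did (2.12), where 1.07% were higher and 0.642% lower. The next in size between the hairpins were PDK1 (-0.82), ENO2 (-0.54) and PFKFB4 (-0.50), all lower with hairpin #2, while HK1 was at -0.03.

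**Figure D4:**
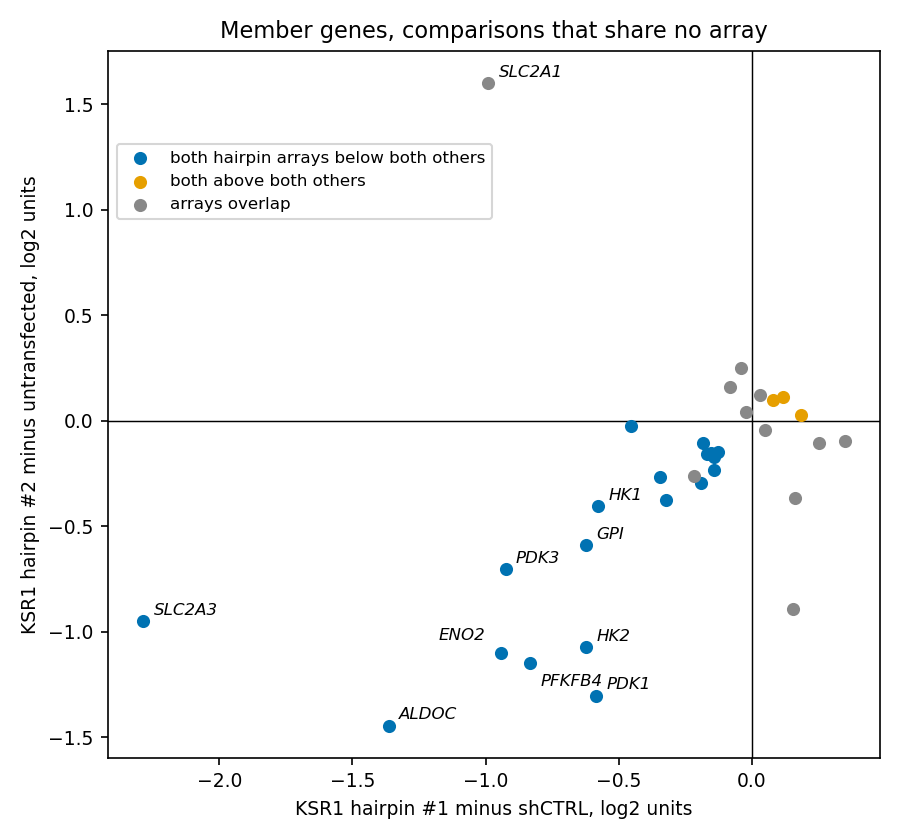
Each point is a member gene, with hairpin #1 minus shCTRL on the horizontal and hairpin #2 minus untransfected cells on the vertical axis, in log2 units, so that no array enters both axes. ALDOC, ENO2, PFKFB4, HK2, PDK1, PDK3 and SLC2A3 lie low on both axes, SLC2A3 with hairpin arrays under the filter value, and SLC2A1 is at -0.99 and 1.60.

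Other genes of glucose and pyruvate use lay on both sides. Of 21 further genes analysed, 4 (19.0%) were lower and 8 (38.1%) higher in both hairpin arrays, against 18.4% and 22.5% of all genes, with a median difference of -0.01. TIGAR, a phosphatase that slows phosphofructokinase, had 439 (untransfected), 472 (shCTRL), 629 (hairpin #1) and 766 (hairpin #2), a difference of 0.59 (SE 0.13). PCK2, the mitochondrial enzyme that makes phosphoenolpyruvate from oxaloacetate, was higher by 0.59 and the transporter SLC2A6 by 0.59, the latter mainly with hairpin #2.

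Genes of neighbouring pathways were counted against the same 18.4% lower and 22.5% higher. Of 6 pentose phosphate genes 0 were lower and 2 (33.3%) higher, with PGLS, TKT and PGD at 0.15, 0.14 and 0.13. Of 17 tricarboxylic acid cycle genes 2 (11.8%) were lower and 4 (23.5%) higher, with a median of 0.02. The largest differences there were those of the isocitrate dehydrogenase genes IDH1 (0.59, mainly in hairpin #2), IDH2 (-0.54, SE 0.11) and IDH3A (0.31), while IDH3B and IDH3G were at -0.02 each.

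Transcripts of known regulators were measured on the same arrays. HIF1A, the oxygen-regulated HIF subunit, had 3339 without transfection, 3659 in shCTRL cells, 5041 under hairpin #1 and 4404 under #2, a difference of 0.43 (SE 0.12, limma adjusted p = 0.668), opposite in sign to most members. HIF activity is set largely by protein stability, which arrays do not measure. EGLN3, a HIF hydroxylase that is itself a HIF target, differed by -0.39 (SE 0.13) and MLX, the partner of MondoA, by 0.27. Of 12 regulators analysed 2 were lower and 2 higher (16.7% each), against 18.4% and 22.5% of all genes.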

How the data were processed

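Expression was measured on 4 Affymetrix arrays, each with 54675 probe sets and a single biotin label. The authors deposited linear intensity values, 1 per probe set and array. Their background correction, summary method and normalization between arrays are not given in sources used here. Values were not scaled further and were converted to log2(intensity + 16) (R 4.3.3, limma 3.58.1). Genes were named through the platform annotation, and all 33 members matched RefSeq by gene identifier. A gene took its probe set with the highest mean over the arrays and was kept where that mean was at least 6.08, which is the median log2 value over every probe set. limma (lmFit, eBayes, Benjamini-Hochberg adjustment over all 12468 genes kept) compared both hairpin arrays with the untransfected and shCTRL arrays, and the script was tested on simulated data. Single pairs of arrays have no test. No detection calls were used, and the number of arrays, not a depth, limits precision. Members and lists were chosen with earlier results of these data known. Values by array are given for KSR1 and for genes 2-fold apart in a pair. Most genes whose hairpin arrays lie on 1 side of both others have them too. PFKL, PFKP, TPI1, PGAM1 and PDHA1 lie so but have none, while PDHB and PDK4 have them outside these rules. Up to 3 genes of each other list were named by size, some with values by array. Other names, and the promoters printed, were chosen after their values were seen. Alternatives covered filters, probe set choice, normalization, pseudocounts, leaving out each array and, added later, leaving out SLC2A3.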

Additional observations from a re-analysis of the deposited data

Results flagged for a closer look

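SLC2A1 stood out because the hairpins lay on opposite sides of both control arrays. Hairpin #2 minus hairpin #1 was 2.12 log2 units. Relative to shCTRL, hairpin #1 was at -0.99 and hairpin #2 at 1.13, and relative to untransfected cells they were at -0.52 and 1.60. Both SLC2A1 probe sets showed this order. With 1 array per hairpin the difference was not tested.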

How the results depend on the processing

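The count of lower members stayed between 18 and 20 under the other filters, probe set choices, normalizations and pseudocounts, and limma called 0 genes under every alternative run, with smallest adjusted p-values from 0.0996 (without hairpin #1) to 0.914 (without hairpin #2). The mean over all probe sets of a gene gave 6 higher members in place of 3, and a median member difference of -0.13, from 18 lower of 31 members. Leaving out each array in turn gave 21 to 24 lower members and 4 to 7 higher ones, where 31.3% to 33.5% and 35.8% to 39.7% of all genes met the looser rules on 3 arrays, and medians from -0.18 to -0.16. Leaving out SLC2A3, chosen after seeing the data, gave 18 lower and 3 higher members and 5 in place of 6 past 2-fold in a pair. Of 275 values for 23 named members, 274 kept their sign, and SLC2A1 turned to -0.75 without hairpin #2 and was 1.36 without hairpin #1. All but SLC2A1 were picked for having both hairpin arrays on 1 side of both others. For them, changing the filter or pseudocount or leaving out an array could not turn the sign. The count of kept signs was thus largely fixed by that choice. With the mean over probe sets, PFKFB4 was at -0.64, PDK1 at -0.52 and PDK3 at -0.40. ENO1 was at -0.10 without hairpin #2, and PFKL at -0.07 and PDHA1 at 0.05 without shCTRL. Among genes that met either rule, 45.0% were lower in all, 55.7% after quantile normalization and 36.4% after median centring. No paired analysis was possible because each group has 1 array and the labels give no replicate numbers. Signal near background limits SLC2A3 and PDK4.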
